A study of Mus musculus with 16 samples.

Results

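Imprinted genes are those that a cell reads mainly or only from the copy inherited from one parent. The genes described here are 43 known mouse imprinted genes, taken by their symbol from both deposited tables, of 24063 genes in each, and they lie at 18 loci. In textbook accounts 24 of them are read mainly from the paternal copy and 15 mainly from the maternal copy, and 4 (Grb10, Gnas, Inpp5f and Trappc9) have transcripts or tissues of both kinds. The cells were AtT-20, cultured cells of a mouse pituitary tumour that keep the corticotrope's product, pro-opiomelanocortin, and ribosome-depleted total RNA was read. Pax7 is the pioneer transcription factor of the melanotrope, the other pituitary cell that makes this precursor, and the comparisons asked which transcripts change when it is present or activated.

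The groups were as follows. Neo cells carried 3x flag-Neo and served as the untreated control (2 libraries), and Pax7 cells carried 3x flag-Pax7, also untreated (2 libraries). ER-Pax7 cells carried 3x flag-ER-Pax7, in which Pax7 is joined to part of the oestrogen receptor, and were read at 0 h and after 12, 24 and 96 h of 4-hydroxytamoxifen, which activates the fusion (3 libraries at each time). The 0 h cells therefore already carried the fusion, and the 12, 24 and 96 h comparisons share the 0 h libraries. No group used here received 4-hydroxytamoxifen without the fusion, so the compound and the activated fusion cannot be told apart. Only 1 Neo and 1 Pax7 population were compared, and the labels do not say that libraries of a group came from separate cultures, so p-values measure only the spread between these libraries, which may be technical.

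An imprint is a methylation mark laid on one parental copy in the egg or sperm and kept through later cell divisions. At many loci the unmarked copy starts a long non-coding RNA that goes with silence of the neighbouring protein-coding genes on the same chromosome, so members of a locus are often read from opposite parental copies. The pituitary and other endocrine tissues read many imprinted genes, several of which act in growth, metabolism and hormone signalling. The values here are sums over both copies: they do not show from which parental copy a transcript came.

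Neo and Pax7 values are FPKM over the whole gene body, introns included, and ER-Pax7 values are exon reads scaled to the same total in each library. Both were divided by TMM factors, which bring the bulk of genes to the same level. The tables were normalized separately, so no level is compared between them, and counting did not use strand in either. The ER-Pax7 libraries held 61.3 to 88.8 M counted reads (M, mega), so that 3 reads are worth 0.244 to 0.353 scaled reads. The share of scaled reads on the ribosomal precursor Rn45s was 2.345% in 12 h replicate 2 and 0.753% to 1.263% in the other 11 ER-Pax7 libraries. Pax7 itself read 0 and 0.0104 FPKM in Neo cells and 2.29 to 2.37 FPKM in Pax7 cells, and 1648 to 1911 scaled reads in the 12 ER-Pax7 libraries. Pomc, the defining corticotrope gene, stood at 2490 to 2499 FPKM in Neo cells and at 2286 to 2433 in Pax7 cells. Of the other corticotrope markers, limma called Pcsk1 higher in Pax7 cells (log2 0.74) and Pitx1, Neurod1 and Nr3c1 lower (−0.23, −0.20 and −0.54). Tbx19 was not called, and Crhr1 averaged 0.118 FPKM in Neo and 0.0488 in Pax7 cells. Of the melanotrope markers Megf11 was called higher (log2 1.61). Pcsk2 averaged 0.0718 and 1.28 FPKM and Oacyl 0.00522 and 0.814. Drd2, Esm1 and the corticotrope marker Avpr1b did not pass the filter. The summed level of 5 fibroblast markers was 0.242 to 0.250 FPKM in Neo and 0.230 to 0.298 in Pax7 cells, and that of 3 endothelial markers 0.0302 to 0.0313 and 0.0298 to 0.0383. The 4 immune markers summed to 0.181 to 0.188 FPKM in Neo and 0.316 to 0.437 in Pax7 cells, and Cd68 among them was called higher (log2 0.77, limma adjusted p = 0.0193). In ER-Pax7 cells the fibroblast sum was 23.7 to 32.1 scaled reads at 0 h, 22.3 to 27.5 at 24 h and 17.8 to 23.5 at 96 h, where Col1a1 was lower (log2 −0.43, limma adjusted p = 0.0140). The immune sum was 9.01 to 11.2 at 0 h and 7.503 to 10.8 at 96 h, and the endothelial sum 2.26 to 4.41 and 2.43 to 4.31. Of the 6 genes of other pituitary hormone cells, Cga read 0.161 to 0.473 scaled reads at 0 h and 1.06 to 3.03 at 24 h. Cga passed the filter on low values only through the 12 and 24 h libraries, where it is high, so no test is given for it. Prl was listed at 0 in all 16 libraries. Pomc was lower at 24 h (log2 −0.32, limma adjusted p = 2.14e-04) and not called at 96 h (0.695). At 96 h limma called Tbx19, Pitx1, Neurod1 and Pcsk1 higher (log2 0.28, 0.25, 0.30 and 0.14). Crhr1 and Nr3c1 were called lower (−0.54 and −0.26). Of the melanotrope markers Pcsk2 was called higher at 96 h (log2 1.46), and Megf11 was not called. Oacyl averaged 1.59 scaled reads at 0 h and 119 at 96 h, and Esm1 1.20 and 2.89. Drd2 and Avpr1b did not pass the filter. The part of these markers in the results was not tested.

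RefSeq start windows (250 bases before to 50 bases after a start, build GRCm38.p6) were found for 33 of the 43 genes by symbol. The letters TGCCGC, read on either strand, are the core that the imprint-keeping zinc finger protein ZFP57 is known to bind when methylated, and they stood in the window nearest the table's start for 9 of the 33 genes. Snrpn and Snurf share 1 window, so 8 of 32 distinct windows (25%) held them, against 11.6% of all 32851 windows. The 32 distinct windows of the imprinted genes held a median of 15 CG pairs, against 7 in all windows. Pax7 is known to bind paired TAAT letters, but TAAT followed by ATTA after 2 or 3 bases of any kind, which reads alike on both strands, was found in 0 of the 33 windows (0.39% and 0.487% of all windows). That says only that these letters are not there. Below are the windows of Mest, the gene with the largest difference, of Nap1l5, the other of these genes with 2 matches, of Igf2r, which is higher in both systems and has 34 CG pairs, and of Rian, which was lower at 12, 24 and 96 h and has none. TGCCGC or its reverse complement is in capitals.
Mest, chr6:30737803-30738102, plus strand: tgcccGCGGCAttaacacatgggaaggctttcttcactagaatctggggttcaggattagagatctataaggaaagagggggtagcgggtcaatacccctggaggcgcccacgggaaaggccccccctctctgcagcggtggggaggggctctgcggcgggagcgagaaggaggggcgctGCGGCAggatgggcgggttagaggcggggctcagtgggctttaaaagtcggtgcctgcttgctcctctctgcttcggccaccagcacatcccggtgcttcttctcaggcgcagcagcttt
Nap1l5, chr6:58907077-58907376, minus strand: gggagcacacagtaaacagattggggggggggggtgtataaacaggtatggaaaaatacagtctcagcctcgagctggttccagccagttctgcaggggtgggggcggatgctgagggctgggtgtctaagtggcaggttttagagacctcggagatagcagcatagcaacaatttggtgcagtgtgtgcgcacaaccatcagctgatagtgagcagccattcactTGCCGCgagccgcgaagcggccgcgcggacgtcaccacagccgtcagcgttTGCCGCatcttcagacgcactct
Igf2r, chr17:12769657-12769956, minus strand: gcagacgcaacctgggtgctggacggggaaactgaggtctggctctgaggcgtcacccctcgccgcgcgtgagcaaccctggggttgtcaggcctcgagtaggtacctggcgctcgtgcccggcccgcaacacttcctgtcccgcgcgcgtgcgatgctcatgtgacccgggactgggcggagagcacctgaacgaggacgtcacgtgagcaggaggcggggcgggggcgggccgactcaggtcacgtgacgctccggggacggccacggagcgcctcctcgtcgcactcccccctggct
Rian, chr12:109603695-109603994, plus strand: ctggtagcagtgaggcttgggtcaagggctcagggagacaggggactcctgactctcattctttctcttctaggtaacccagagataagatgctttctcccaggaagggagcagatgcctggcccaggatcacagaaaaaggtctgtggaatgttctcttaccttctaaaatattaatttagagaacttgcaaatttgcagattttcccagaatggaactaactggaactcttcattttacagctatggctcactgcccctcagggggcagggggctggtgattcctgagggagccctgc

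Levels spanned the whole range of these cells. Per length, the most abundant imprinted gene was Gnas, which encodes the stimulatory G protein alpha subunit that couples hormone receptors to cyclic AMP: 118 ± 7.36 FPKM in Neo cells (SD, n = 2), above 99.5% of all genes. In ER-Pax7 cells at 0 h it had 6739 scaled reads per kb of exon, and the next gene, the ubiquitin ligase gene Ube3a, had 432. Mest was the eighth of the 43 in both Neo and 0 h cells. At the other end, H19, a non-coding RNA of growth control, and Ndn, which encodes necdin, were listed at 0 in all 16 libraries, and 3 reads would be worth up to 0.353 scaled reads. Dlk1, a Notch-like surface protein gene abundant in parts of the normal pituitary, Igf2, which encodes insulin-like growth factor 2, the deiodinase gene Dio3, Magel2, Ppp1r9a, Asb4, Phlda2 and Rasgrf1 had at most 1.00 scaled reads and 0.0417 FPKM in any library. In all, 25 of the 43 genes passed the filter on low values in the Neo and Pax7 table and 32 in the ER-Pax7 table, 24 in both and 10 in neither.

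**Figure D1:**
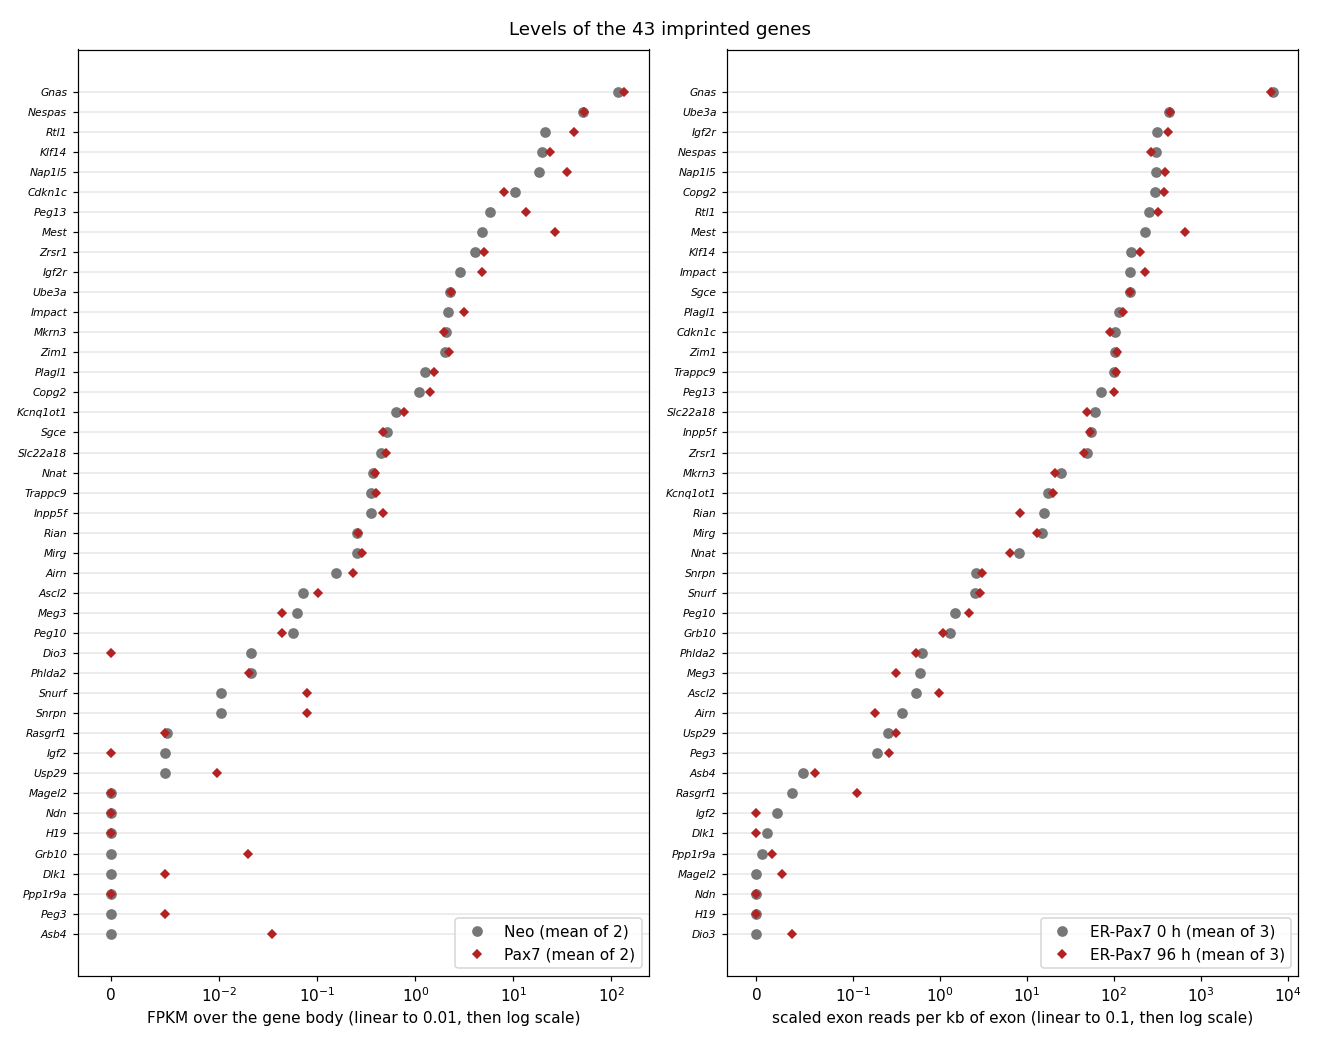
Mean level of each of the 43 imprinted genes, ordered by level: FPKM over the gene body in Neo and Pax7 cells (left, means of 2 libraries) and scaled exon reads per kb of exon in ER-Pax7 cells at 0 and 96 h (right, means of 3 libraries), on axes that are linear near 0 and logarithmic above. Gnas is highest in both panels, H19 and Ndn lie at 0 in both, and Mest shows the largest rightward shift among the abundant genes.

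In Pax7 cells, 13 of the 25 tested imprinted genes were called different from Neo cells (limma, adjusted p under 0.05), 12 higher and 1 lower. Of all 13393 genes tested, 36.7% were called, 18.5% higher and 18.2% lower (2475 and 2436 genes, or 2600 and 1241 without TMM factors). The median log2 difference was 0.23 over the 25 genes and 0.01 over all genes. The 2 libraries of each group did not overlap for 18 of the 25 genes, against 74% of all genes. Of the 24 paternally read genes 13 were tested and 8 were called higher and the other 5 were not called. Of the 15 maternally read genes 9 were tested, 3 were called higher and 1 lower. At 96 h 7 of 17 tested paternal genes were higher and 3 lower, and 3 of 11 maternal genes were higher and 4 lower. Of all genes tested at 96 h, 16.3% were higher and 17.4% lower. The 17 include both Snrpn and Snurf, whose rows cover the same bases. A difference between paternal and maternal genes was not tested.

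In ER-Pax7 cells, 6 of 32 tested imprinted genes were called at 12 h against 0 h (5 higher, 1 lower), against 6.49% of all 15188 genes tested (2.79% higher, 3.71% lower), and the groups did not overlap for 8 (20.3% of all genes). At 24 h 11 of 32 were called (8 higher, 3 lower), against 13.5% of all genes (5.47% higher, 8.07% lower), and 16 did not overlap (28%). At 96 h 17 of 32 were called (10 higher, 7 lower), against 33.7% of all genes (16.3% higher, 17.4% lower), and 19 did not overlap (45.8%). The median log2 difference at 96 h was 0.096 over the 32 genes, with that over all genes below 0.01 in size. Between 24 and 96 h 12 of 32 were called (8 higher, 4 lower), against 12.7% of all genes (6.16% higher, 6.54% lower), and 16 did not overlap (30.7%). Over the 4 times together 16 of 32 differed by limma, against 30.3% of all genes. Without 12 h replicate 2, the library with the most Rn45s, 4 genes were called at 12 h, all higher.

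Of the 24 imprinted genes tested in both systems, 8 were called higher both in Pax7 cells and at 96 h, which is 72.7% of the 11 higher in Pax7 cells and 88.9% of the 9 higher at 96 h. Of the 12992 genes tested in both, 7.99% were higher in both, which is 42.8% of those higher in Pax7 cells and 44.8% of those higher at 96 h. These comparisons share no library. The 8 genes were Mest, Copg2, Klf14, Rtl1, Igf2r, Nap1l5, Impact and Peg13. Mest and Copg2 share exon bases and may not be separate results. Cdkn1c was lower in both (7.75% of all genes), and Zrsr1 was higher in Pax7 cells and lower at 96 h.

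**Figure D2:**
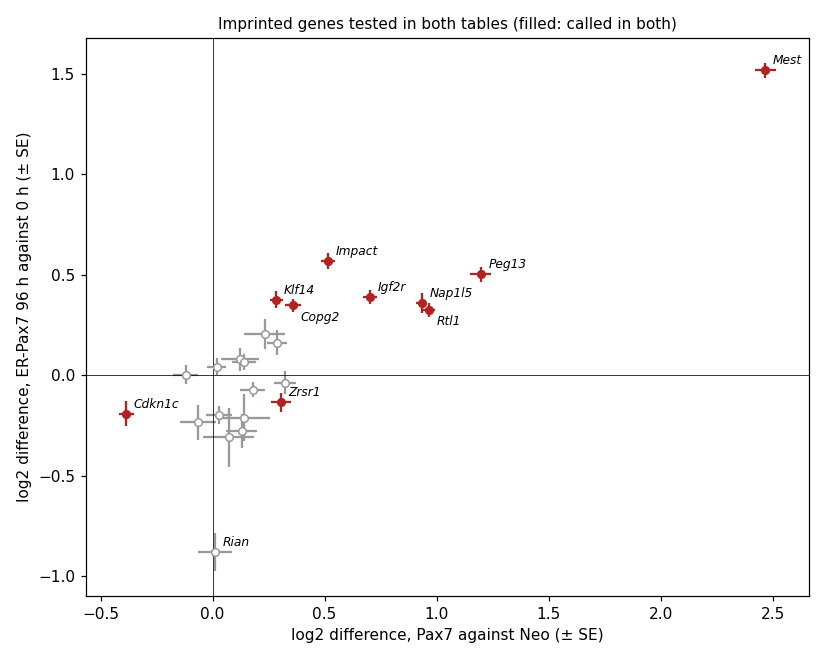
Log2 difference of the 24 imprinted genes tested in both tables, Pax7 against Neo on the x axis and ER-Pax7 96 h against 0 h on the y axis, each with its standard error; filled points were called in both. Mest stands apart at the upper right, 7 other named genes lie in the same quadrant, Cdkn1c is at the lower left and Zrsr1 at the lower right.

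The Mest locus had the largest difference, and its 3 genes were higher in each comparison with 0 h and with Neo. Of them, Copg2 shares exon bases with Mest, as described below. Mest (NM_001252292, mm10 chromosome 6, 30738053 to 30748466, plus strand), which encodes a protein of the alpha/beta hydrolase fold family and is read from the paternal copy, had 4.97 and 4.60 FPKM in Neo cells and 26.9 and 26.9 in Pax7 cells. The groups lay far apart, with a 5.53-fold difference (log2 2.47, SE 0.05, limma adjusted p = 7.40e-04). Folds here and below were taken after the pseudocount was added, which understates those of low genes. In RNA from whole cultures, more cells with a transcript and more transcript per cell cannot be told apart.

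In ER-Pax7 cells Mest read 622, 617 and 601 scaled exon reads at 0 h, and 1227, 1323 and 1278 at 12 h. It then read 1422, 1430 and 1365 at 24 h, and 1700, 1805 and 1773 at 96 h. No library of a later time overlapped an earlier one. The log2 difference from 0 h was 1.05 at 12 h, 1.19 at 24 h and 1.52 at 96 h (SE 0.037 each), and adjusted p-values by limma were 5.47e-14, 3.09e-15 and 2.65e-17. Of the gain in the mean between 0 and 96 h, 57.8% was present at 12 h and 69.1% at 24 h. The authors' deposited table gives Mest log2 folds of 2.40 for Pax7 against Neo and 1.06, 1.20 and 1.52 at 12, 24 and 96 h. Mest is the 1 imprinted gene under an FDR of 0.05 for Pax7 against Neo in the authors' deposited table, where limma called 13. There Rtl1 has an FDR of 0.312, and Nap1l5, Peg13, Impact and Igf2r have an FDR of 1.0 at log2 folds of 0.88, 1.15, 0.56 and 0.71. Copg2 has a log2 fold of 0.0 for Pax7 against Neo in the authors' deposited table. Sgce, deposited at 0.52 and 0.49 FPKM in Neo and 0.47 and 0.49 in Pax7 cells, has one of −3.17 there. Slc22a18, at 0.45 and 0.42 in Neo and 0.49 and 0.53 in Pax7 cells, has one of 2.32. These folds do not follow the 2-decimal FPKM tested here, so the counts of 1 and 13 do not compare like values. Whether the authors' test used FPKM rounded to whole numbers was not tested. At 12, 24 and 96 h the authors' deposited table has 3, 8 and 12 imprinted genes under 0.05, where limma called 6, 11 and 17.

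Copg2 (chromosome 6, 30747554 to 30896794, minus strand) encodes a coat subunit of vesicles of the secretory pathway. It lies tail to tail with Mest, and the 2 rows share 913 bases on opposite strands, 8.77% of the Mest gene body. The share is larger for the ER-Pax7 values, which count exons only: Mest has 2.651 kb of exon and Copg2 3.99 kb. Copg2 had 1.09 and 1.07 FPKM in Neo and 1.40 and 1.43 in Pax7 cells. It read 1189, 1185 and 1173 scaled reads at 0 h, 1375, 1426 and 1373 at 12 h, 1427, 1448 and 1451 at 24 h, and 1478, 1531 and 1506 at 96 h. The Neo and 0 h libraries were below all others of their table. The log2 differences were 0.36 in Pax7 cells and 0.23, 0.29 and 0.35 at 12, 24 and 96 h (limma adjusted p from 2.87e-08 to 0.00716). Since the shared bases are exons of both genes in GENCODE (912 bases), reads there cannot be told apart between Copg2 and Mest. Their part in the Copg2 difference was not tested, so Copg2 may not be a result separate from Mest.

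Klf14 (chromosome 6, 30956021 to 30958990, minus strand), a single-exon transcription factor gene read from the maternal copy, does not overlap Mest and lies 207.6 kb from it. It had 19.4 and 19.5 FPKM in Neo and 23.9 and 23.5 in Pax7 cells. It read 494, 451 and 450 scaled reads at 0 h, 518, 520 and 518 at 12 h, 562, 535 and 531 at 24 h, and 617, 588 and 605 at 96 h. No 0 h library reached a later one. The log2 differences were 0.28 in Pax7 cells (limma adjusted p = 0.00632) and 0.16, 0.22 and 0.38 at 12, 24 and 96 h. The 12 h call was lost without 0 h replicate 2 or 3 or 12 h replicate 1 or 3 (limma adjusted p from 0.0591 to 0.117), and the 96 h against 24 h call without 24 h replicate 2 or 3 or 96 h replicate 1 or 3 (0.0546 to 0.0751).

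Of the genes around Mest, Cep41, a centrosome protein gene 44.4 kb away, was higher in Pax7 cells (0.804 ± 0.0458 FPKM in Neo, 1.01 ± 0.0483 in Pax7, SD, n = 2; log2 0.29, limma adjusted p = 0.0289) but read 192 ± 5.68 scaled reads at 0 h and 185 ± 6.57 at 96 h (n = 3; adjusted p = 0.386). Cpa4, a carboxypeptidase gene 146.3 kb away that is imprinted in some tissues, was listed at 0 in the 3 libraries at 0 h. It read 1.50, 2.54 and 3.42 scaled reads at 96 h and at most 0.921 at 12 and 24 h. Cpa4 thus passed the filter on low values only through the 96 h libraries, where it is high, so no test is given for it. Tsga13, between Copg2 and Klf14, stayed below 0.6 scaled reads in each ER-Pax7 library and at 0 in the others. A neighbour list of 34 genes that flank or host imprinted genes had 9 of 20 tested called in Pax7 cells (7 higher, 2 lower; 36.7% of all genes) and 7 of 25 at 96 h (4 higher, 3 lower; 33.7% of all genes).

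**Figure D3:**
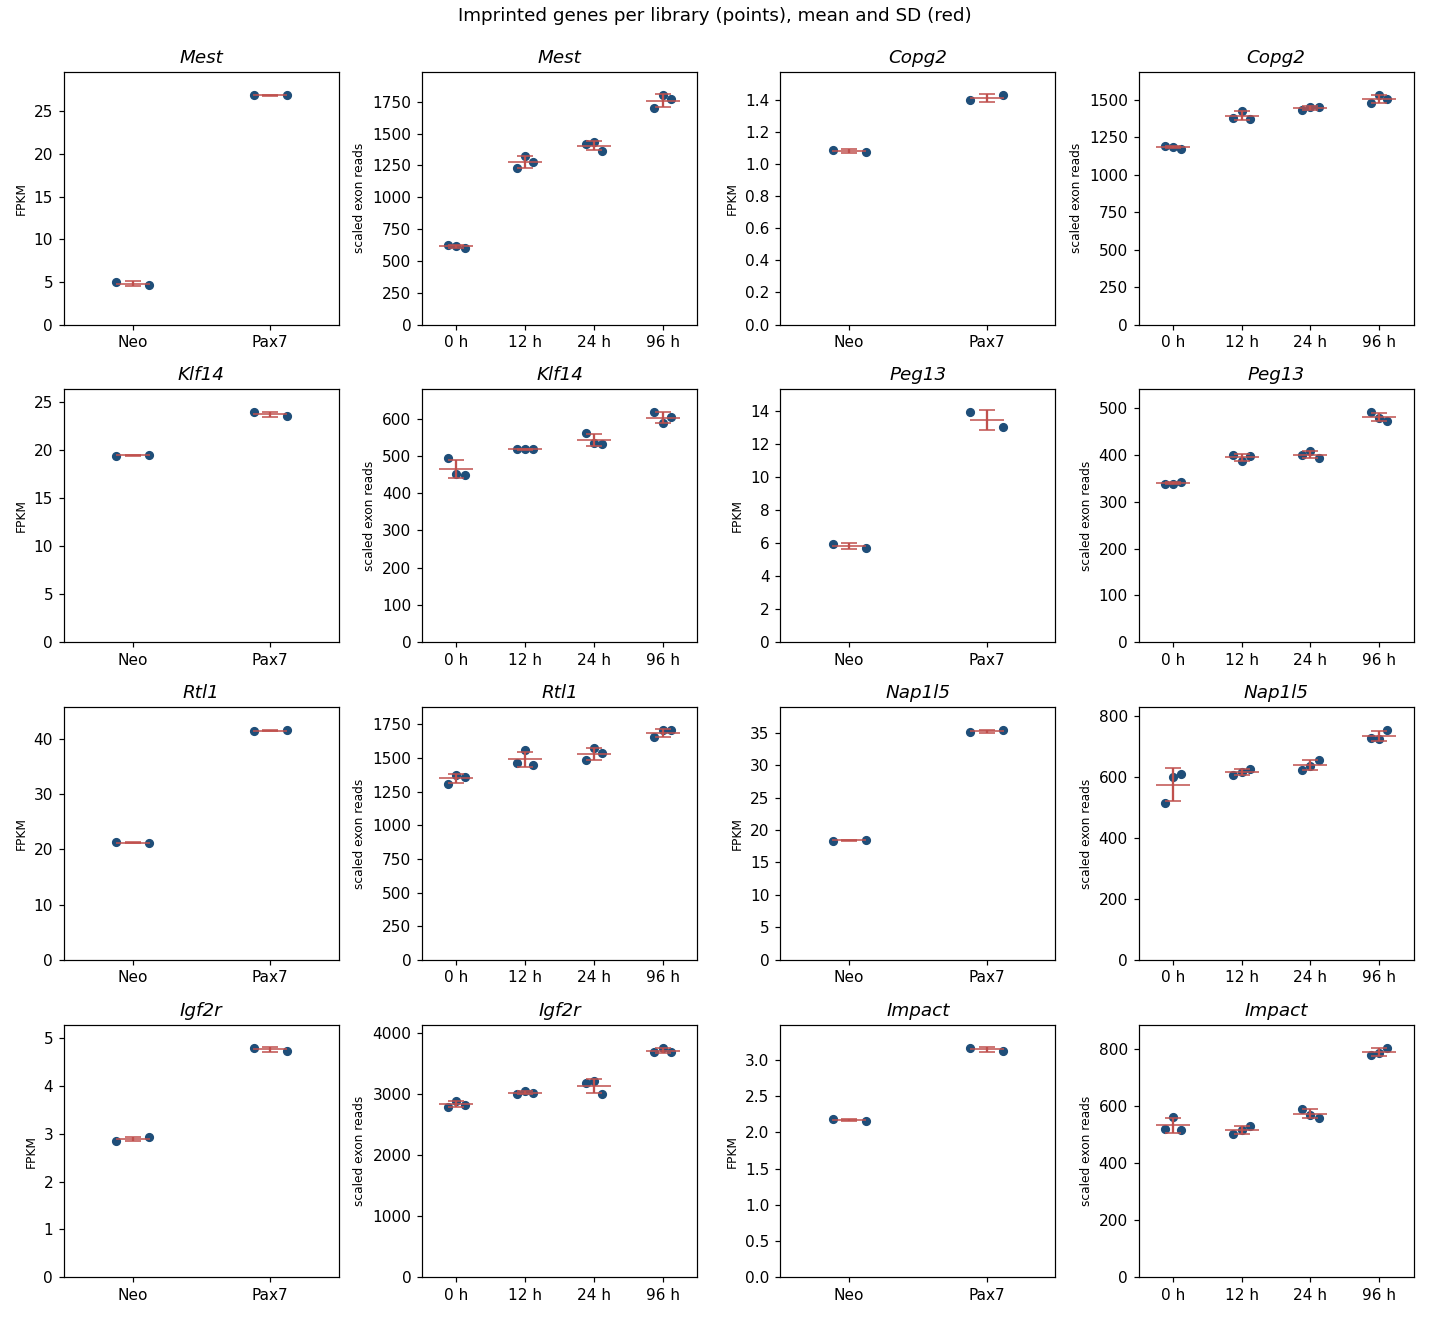
Values of the 8 imprinted genes higher both in Pax7 cells and at 96 h, in each library: FPKM for Neo and Pax7 (2 points each) and scaled exon reads for ER-Pax7 at 0, 12, 24 and 96 h (3 points each), with the mean and SD in red and each axis from 0. Neo points lie below Pax7 points in each gene, and the 96 h points lie above the 0 h points in each. Those of Impact and Nap1l5 at 12 h overlap the 0 h points.

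Peg13 had the next largest difference in Pax7 cells. It is a non-coding RNA read from the paternal copy (NR_002864, chromosome 15, 72805600 to 72810324, minus strand), and in GENCODE it lies inside an intron of Trappc9, a gene for a vesicle trafficking complex. Peg13 had 5.95 and 5.72 FPKM in Neo and 13.9 and 13.1 in Pax7 cells, a 2.29-fold difference (log2 1.20, SE 0.05, limma adjusted p = 0.00185). It read 338, 338 and 342 scaled reads at 0 h, 400, 386 and 398 at 12 h, 399, 408 and 393 at 24 h, and 491, 480 and 473 at 96 h. The 12 and 24 h libraries overlapped each other and lay between those at 0 and 96 h. Log2 differences from 0 h were 0.22, 0.24 and 0.50 (limma adjusted p = 5.36e-04, 1.15e-04 and 1.55e-09).

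Trappc9 itself was not called in any of these comparisons. It had 0.343 and 0.365 FPKM in Neo and 0.402 and 0.398 in Pax7 cells (log2 0.14, limma adjusted p = 0.119). It read 400, 407 and 408 scaled reads at 0 h, 413, 402 and 427 at 12 h, 434, 444 and 423 at 24 h, and 415, 443 and 414 at 96 h. The 24 and 96 h libraries lay above those at 0 h (log2 0.098 and 0.065, limma adjusted p = 0.124 and 0.232). Its row in the Neo and Pax7 table (72993817 to 73061204) does not reach Peg13. The ER-Pax7 table gives Trappc9 another span, which was not compared with Peg13. The 2 genes share no exon bases in GENCODE, though they lie on the same strand. Unspliced Trappc9 reads within Peg13 would be counted as Peg13.

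The Dlk1-Dio3 locus on chromosome 12 is known in the pituitary for Meg3, a non-coding RNA that is lost in many human pituitary tumours. Its genes moved in opposite directions at 96 h. Rtl1 (109590169 to 109595403, minus strand), a retrotransposon-derived gene read from the paternal copy, had 21.3 and 21.1 FPKM in Neo and 41.4 and 41.6 in Pax7 cells, a 1.95-fold difference (log2 0.97, SE 0.03, limma adjusted p = 0.00120). It read 1309, 1375 and 1360 scaled reads at 0 h, 1463, 1557 and 1450 at 12 h, 1485, 1572 and 1536 at 24 h, and 1654, 1708 and 1705 at 96 h. No 0 h library reached a later one. Log2 differences were 0.14, 0.18 and 0.33 (limma adjusted p = 0.0160, 0.00125 and 5.51e-07), and the 12 h call was lost without 0 h replicate 1 (0.0748) or 12 h replicate 2 (0.0851). The 96 h against 24 h call (log2 0.14, limma adjusted p = 0.0121) was lost without 24 h replicate 1 or 96 h replicate 2 or 3 (0.0528 to 0.0647).

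The strand from which the Rtl1 reads came is not known. On the opposite strand of the same bases lies a non-coding transcript, 6430411K18Rik, which shares 1315 bases with Rtl1, and miRNA genes such as Mir127, Mir433 and Mir434 that are read from the maternal copy. The row of 6430411K18Rik averaged 24.7 FPKM in Neo and 49.6 in Pax7 cells, and 393 scaled reads at 0 h and 494 at 96 h. Those of Mir434 averaged 18.7 and 40.3 FPKM, and those of Mir433 24.8 and 46.9. Reads of Rtl1, which is paternal, and of these maternal transcripts cannot be told apart here.

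Rian (109603945 to 109661711, plus strand), a maternal non-coding RNA that hosts small nucleolar RNAs, fell with time. It read 57.4, 56.3 and 55.1 scaled reads at 0 h, 45.0, 41.4 and 46.4 at 12 h, 41.6, 47.7 and 38.4 at 24 h, and 32.0, 27.2 and 31.5 at 96 h. The 0 h libraries were the highest and the 96 h libraries the lowest, with no overlap with the others. Its log2 differences were −0.34, −0.40 and −0.88 at 12, 24 and 96 h, with limma adjusted p of 0.0293, 0.00542 and 3.07e-07. The 12 h call was lost without any 1 of the 0 h libraries or without 12 h replicate 1 or 2 (0.0583 to 0.114), and with no filter (0.0753). In Neo cells Rian had 0.272 and 0.240 FPKM and in Pax7 cells 0.268 and 0.249, which overlap (log2 0.0098, SE 0.076, limma adjusted p = 0.930). These FPKM values cover introns, and the scaled reads only exons.

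Meg3 (109540996 to 109571729, plus strand) was low, at 6.51, 6.31 and 7.84 scaled reads at 0 h, 8.14, 8.01 and 5.44 at 12 h, 6.30, 5.93 and 4.71 at 24 h and 4.30, 2.75 and 3.78 at 96 h. The 96 h libraries lay below all others. It was lower at 96 h, with a log2 difference of −0.78 (SE 0.19, limma adjusted p = 0.00243). The authors' deposited table gives Meg3 an FDR of 0.481 at 96 h. Its FPKM values, 0.0706 and 0.0522 in Neo and 0.0478 and 0.0398 in Pax7 cells, did not pass the filter. Mirg (109734981 to 109749457), a host of miRNAs, read 18.8, 19.2 and 20.9 scaled reads at 0 h, 19.7, 20.5 and 19.7 at 12 h, 15.7, 18.98 and 20.9 at 24 h and 18.0, 16.1 and 16.4 at 96 h. The 96 h libraries were below the 0 h ones, but the difference was not called (log2 −0.21, limma adjusted p = 0.173), nor was that of Pax7 cells (0.252 and 0.250 FPKM in Neo, 0.249 and 0.328 in Pax7, adjusted p = 0.405).

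**Figure D4:**
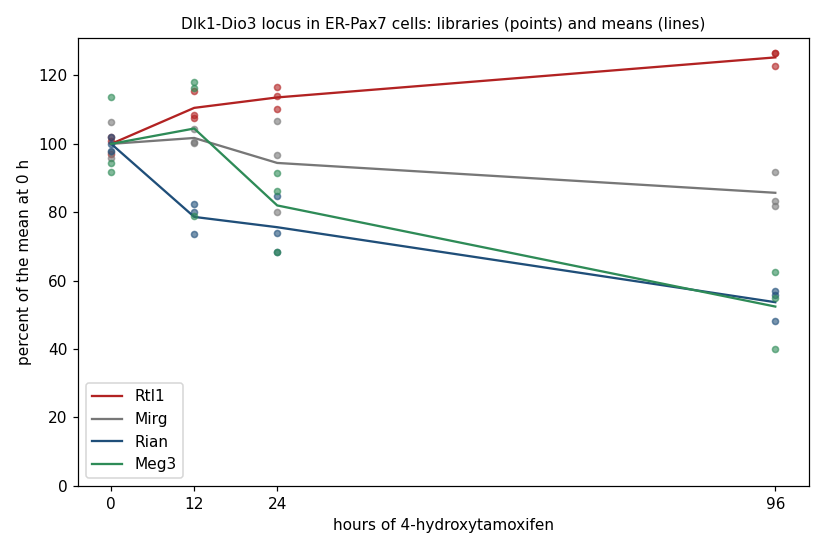
Scaled exon reads of 4 genes of the Dlk1-Dio3 locus in ER-Pax7 cells, as a percentage of each gene's mean at 0 h, against hours of 4-hydroxytamoxifen; points are single libraries and lines join the means of 3. At 96 h Rtl1 averaged 125% of its 0 h mean, Rian 53.7% and Meg3 52.4%, with the Mirg libraries between them.

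At the Igf2r locus, Igf2r (NM_010515, chromosome 17, 12682406 to 12769706, minus strand) encodes the mannose 6-phosphate receptor that also binds and clears insulin-like growth factor 2, and is read from the maternal copy. It had 2.85 and 2.92 FPKM in Neo and 4.79 and 4.72 in Pax7 cells, a 1.63-fold difference (log2 0.70, SE 0.03, limma adjusted p = 0.00210). It read 2789, 2889 and 2833 scaled reads at 0 h, 3007, 3048 and 3031 at 12 h, 3189, 3222 and 3008 at 24 h, and 3704, 3766 and 3688 at 96 h. The 96 h libraries lay above all others and the 0 h libraries below. Log2 differences were 0.095 at 12 h (not called, limma adjusted p = 0.107), 0.15 at 24 h (0.00439) and 0.39 at 96 h (1.26e-08). The 12 h difference was called with DESeq2 on recovered reads (adjusted p = 0.0465).

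Airn, the paternal non-coding RNA that starts inside Igf2r on the opposite strand, shares 28396 bases with it, 38.2% of the Airn row. It had 0.141 and 0.167 FPKM in Neo and 0.230 and 0.229 in Pax7 cells (log2 0.38, SE 0.08, limma adjusted p = 0.0298). No Airn call remained when any 1 of the 4 libraries was left out (limma adjusted p from 0.0545 to 0.114). Over its exons Airn read 0 to 0.934 scaled reads in the 12 ER-Pax7 libraries, near the worth of 3 reads. Without strand, gene-body reads of Airn and intron reads of Igf2r cannot be told apart.

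Nap1l5 and Impact, both read from the paternal copy, were also higher in both systems. Nap1l5 (chromosome 6, 58905233 to 58907126, minus strand), of the nucleosome assembly protein family, had 18.3 and 18.5 FPKM in Neo and 35.1 and 35.4 in Pax7 cells, a 1.91-fold difference (log2 0.93, SE 0.03, limma adjusted p = 0.00120). It read 514, 599 and 611 scaled reads at 0 h, 606, 616 and 624 at 12 h, 622, 637 and 655 at 24 h, and 726, 726 and 754 at 96 h. 0 h replicate 1 stood below the other libraries of that time. The 96 h difference was log2 0.36 (limma adjusted p = 9.33e-06). The 24 h call (log2 0.15, adjusted p = 0.0414) was lost without 0 h replicate 1 (log2 0.076, 0.248), any 1 of the 24 h libraries, or 96 h replicate 1 or 2, with no filter (0.0913) or with only the 2 times compared (0.0744).

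Nap1l5 lies wholly inside Herc3, a ubiquitin ligase gene on the other strand. Without strand, unspliced Herc3 reads within Nap1l5 would be counted as Nap1l5. Herc3 was 0.29 higher on the log2 scale in Pax7 cells (1.35 ± 0.0254 FPKM in Neo, 1.67 ± 0.0388 in Pax7, n = 2; limma adjusted p = 0.0115). At 96 h Herc3 was not called (568 ± 5.62 scaled reads at 0 h, 537 ± 11.6 at 96 h, n = 3; limma adjusted p = 0.0769), while Nap1l5 was higher.

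Impact (chromosome 18, 12972252 to 12992948, plus strand), which encodes an inhibitor of the amino acid sensing kinase GCN2, had 2.18 and 2.16 FPKM in Neo and 3.17 and 3.12 in Pax7 cells, a 1.43-fold difference (log2 0.52, SE 0.03, limma adjusted p = 0.00326). It read 519, 563 and 516 scaled reads at 0 h, 503, 517 and 531 at 12 h, 590, 569 and 560 at 24 h, and 780, 785 and 804 at 96 h. The 96 h libraries were above all others, and the 0 and 12 h libraries overlapped. Log2 differences were −0.041 and 0.11 at 12 and 24 h, not called (limma adjusted p = 0.707 and 0.0906), and 0.57 at 96 h (6.75e-10). The 24 h difference was called without 0 h replicate 2 (log2 0.14, limma adjusted p = 0.0281) and without TMM factors (0.0465). Of its gain in the mean by 96 h, 15.6% was present at 24 h, where Mest had 69.1%.

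**Figure D5:**
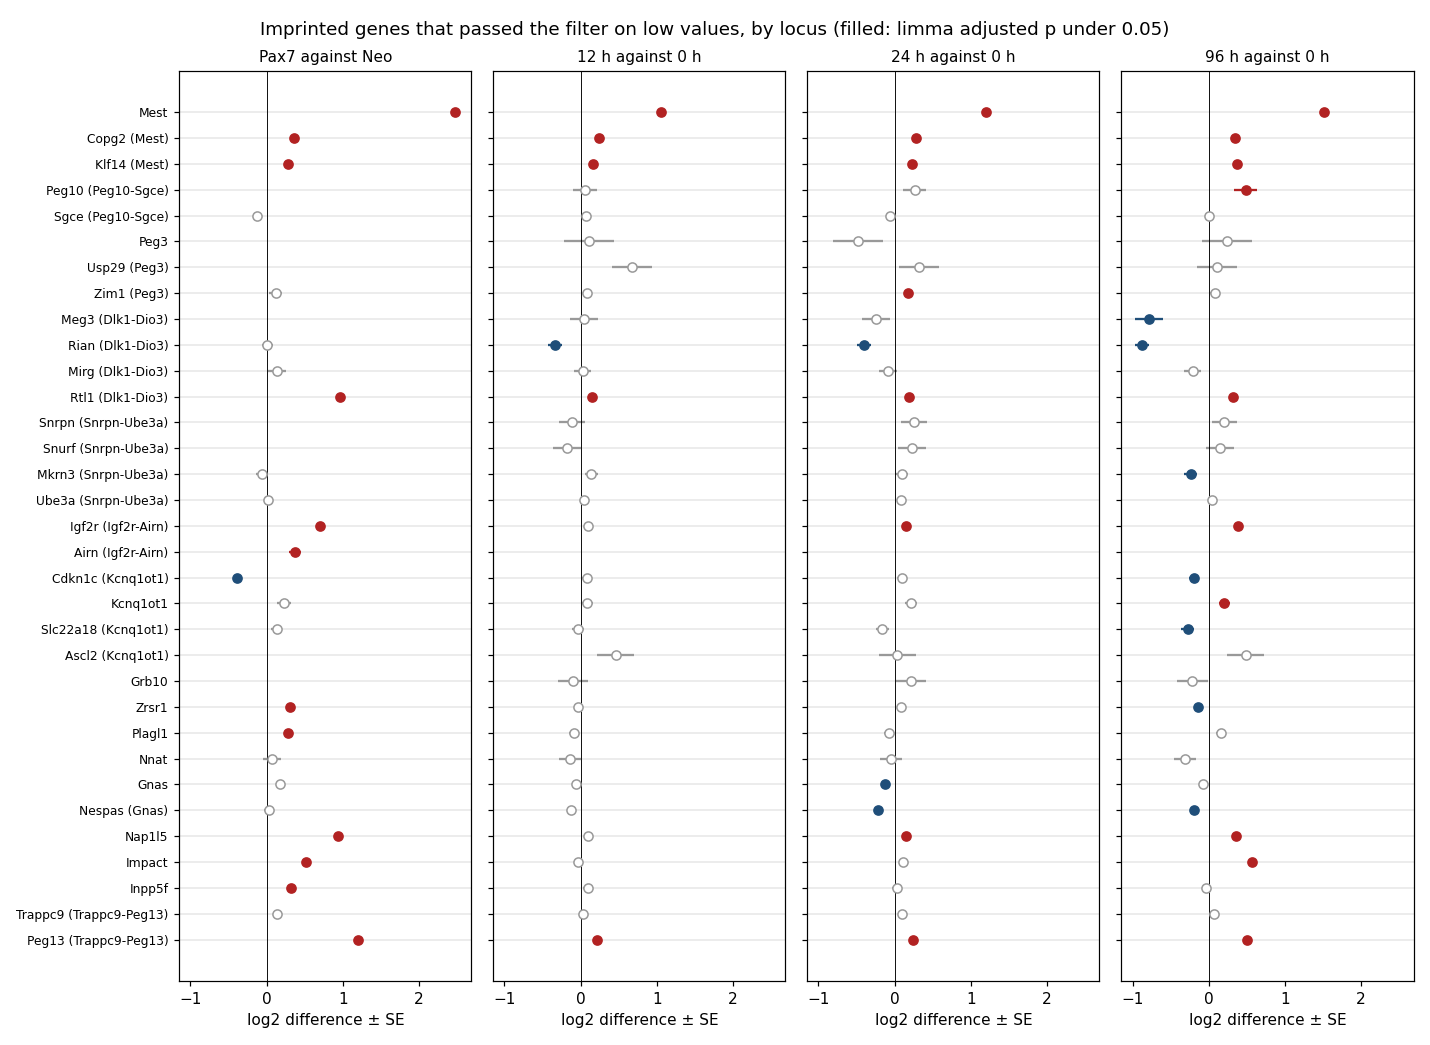
Log2 difference and standard error of the 33 imprinted genes that passed the filter in at least 1 table, by locus, for Pax7 against Neo and for 12, 24 and 96 h against 0 h, which share the 0 h libraries; filled points have a limma adjusted p under 0.05, red higher and blue lower. Mest is farthest to the right in each panel, and Rian is the lowest filled point at 12, 24 and 96 h.

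The Kcnq1ot1 locus on chromosome 7 held Cdkn1c, the 1 gene of the 24 that was called lower in both systems. Cdkn1c, the maternal gene for the cyclin-dependent kinase inhibitor p57, was 10.4 and 10.4 FPKM in Neo and 7.78 and 8.11 in Pax7 cells, a log2 difference of −0.39 (limma adjusted p = 0.00546). It read 189 to 210 scaled reads at 0 h, 212 to 216 at 24 h and 163 to 190 at 96 h. It was lower at 96 h than at 0 h by log2 −0.19 (limma adjusted p = 0.0199), a call lost without 0 h replicate 1 or 3 or 96 h replicate 2 or 3 (0.0556 to 0.133), and than at 24 h by log2 −0.28 (0.00384).

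Kcnq1ot1, the paternal non-coding RNA of the locus, had 0.595 and 0.668 FPKM in Neo and 0.813 and 0.706 in Pax7 cells (log2 0.23, limma adjusted p = 0.118). It read 1271 to 1662 scaled reads at 0 h and 1607 to 1748 at 96 h (log2 0.21, limma adjusted p = 0.0434), with overlap. At 24 h Kcnq1ot1 was not called, but was when 0 h replicate 3 (limma adjusted p = 0.0111) or 24 h replicate 3 (0.0209) was left out. The 96 h call was lost without 0 h replicate 1 or 2 or 96 h replicate 2 or 3 (0.0670 to 0.296) and with edgeR or DESeq2 on recovered reads (0.0517 and 0.156), with a pseudocount of 10 (0.0536) or with no filter (0.132). It lies wholly inside Kcnq1, a potassium channel gene on the other strand. Kcnq1 was lower at 96 h by log2 −0.47 (293 ± 10.3 to 211 ± 8.76 scaled reads, n = 3, limma adjusted p = 1.18e-06). Without strand, unspliced Kcnq1 reads within Kcnq1ot1 would be counted as Kcnq1ot1. Slc22a18, a maternal transporter gene, was lower at 96 h by log2 −0.28 (83.9 to 93.9 scaled reads at 0 h, 66.2 to 82.3 at 96 h; limma adjusted p = 0.0131), a call lost without 0 h replicate 1 (0.0509) or 96 h replicate 3 (0.103). Ascl2 stayed at 0.473 to 2.05 scaled reads and was not called.

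At the Gnas locus, Nespas, a paternal non-coding RNA on the strand opposite to the longer Gnas transcripts, read 710, 644 and 708 scaled reads at 0 h, 565, 582 and 618 at 24 h and 595, 585 and 613 at 96 h. Its 24 and 96 h libraries lay below those at 0 h. Its log2 differences were −0.22 and −0.20 (limma adjusted p = 0.00146 and 0.00160), and it stood at 49.9 to 54.5 FPKM in the 4 Neo and Pax7 libraries with overlap. In GENCODE, 988 of its 3143 exon bases are also exons of Gnas, so reads there cannot be told apart. Gnas was lower at 24 h by log2 −0.13 (16070 to 16855 scaled reads at 0 h, 14910 to 15424 at 24 h; limma adjusted p = 0.0282), a call lost without 0 h replicate 1 or 2, 24 h replicate 1 or 3 or 96 h replicate 2 (0.0516 to 0.0934), without TMM factors (0.0590), with a pseudocount of 10 (0.0574), with no filter (0.103) or with only the 2 times compared (0.0772). It was not called at 96 h or in Pax7 cells, where leaving out Neo replicate 1 gave a call (log2 0.24, 0.0444).

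At the Zrsr1 locus Zrsr1, a paternal retrogene related to a splicing factor, was higher in Pax7 cells (3.97 and 4.15 FPKM in Neo, 4.90 and 5.18 in Pax7; log2 0.30, limma adjusted p = 0.0142; 0.0507 without Neo replicate 2 and 0.0583 without Pax7 replicate 1) and lower at 96 h (log2 −0.13, 0.0333; up to 0.127 without 0 h replicate 2 or 3 or 96 h replicate 1 or 2). It lies wholly inside Commd1 on the other strand. Commd1 was lower in Pax7 cells (log2 −0.27, limma adjusted p = 0.0159) and at 96 h (log2 −0.22, 0.00208). Without strand, unspliced Commd1 reads within Zrsr1 would be counted as Zrsr1. Plagl1, a zinc finger transcription factor gene, was higher in Pax7 cells (1.25 and 1.27 FPKM in Neo, 1.51 and 1.61 in Pax7; log2 0.29, limma adjusted p = 0.0162) and at 96 h against 24 h (log2 0.24, 0.0138). The first call was lost without Neo replicate 1 or 2 or Pax7 replicate 1 (0.0552 to 0.0640) and the second without 24 h replicate 3 (0.0906) or with no filter (0.0641). Against 0 h, Plagl1 at 96 h missed the threshold (log2 0.16, limma adjusted p = 0.0533) and passed it without any 1 of 0 h replicate 2, 12 h replicate 1 or 2, or 24 h replicate 2 or 3 (0.0249 to 0.0475), with DESeq2 on recovered reads (0.0466), without TMM factors (0.0473) or with only the 2 times compared (0.0143). Inpp5f, a phosphoinositide phosphatase gene, was higher in Pax7 cells (0.353 and 0.355 FPKM in Neo, 0.459 and 0.477 in Pax7; log2 0.32, limma adjusted p = 0.0153), which was not called without any 1 of the 4 libraries (0.0592 to 0.0757).

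At the Peg10 locus Peg10, a retrotransposon-derived gene, was higher at 96 h (7.83 to 11.4 scaled reads at 0 h, 11.9 to 15.8 at 96 h; log2 0.49, limma adjusted p = 0.0194), a call lost without 0 h replicate 2 (0.127), 96 h replicate 1 (0.0804) or 96 h replicate 2 (0.0810) or with no filter (0.0535), and Sgce, the epsilon sarcoglycan gene, was not called in any comparison. At the Peg3 locus Zim1, a zinc finger gene, was higher at 24 h (327 to 381 scaled reads at 0 h, 385 to 431 at 24 h; log2 0.18, limma adjusted p = 0.0429), a call lost without 0 h replicate 1 (log2 0.11, 0.244), 24 h replicate 2 or 3, or 96 h replicate 1 or 2, with no filter (0.105) or with only the 2 times compared (0.0512). Peg3 and Usp29 stayed at 0.425 to 4.53 scaled reads and were not called. At the Snrpn locus Mkrn3, a ring finger gene, was lower at 96 h (57.2 to 72.5 scaled reads at 0 h, 50.0 to 59.3 at 96 h; log2 −0.23, limma adjusted p = 0.0413), a call lost without 0 h replicate 2 or 3 or 96 h replicate 1 or 3 (up to 0.250), with no filter (0.0774) or with only the 2 times compared (0.0615). Against 24 h Mkrn3 was lower by log2 −0.33 (limma adjusted p = 0.0146), lost without 24 h replicate 3 or 96 h replicate 1 or 3 (0.0503 to 0.0776). Ube3a stood at 2.21 to 2.33 FPKM and 2086 to 2397 scaled reads and was not called.

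A few genes under the filter had higher FPKM in both Pax7 libraries. Snrpn, which encodes a splicing protein, had 0.0101 and 0.0104 FPKM in Neo and 0.0765 and 0.0795 in Pax7 cells. Snurf, whose row covers the same bases, had the same values, so they are not separate results. The counts of tested genes above include both. Asb4 was listed at 0 in both Neo libraries and had 0.0383 and 0.0298 FPKM in Pax7 cells, and Grb10, a growth-limiting signalling adaptor gene, was listed at 0 and had 0.0191 and 0.0199. The deposited FPKM values have 2 decimals, so the spread between libraries at these levels is set by rounding, and no test is given. In ER-Pax7 cells Snrpn (4.58 to 7.75 scaled reads), Snurf and Grb10 were tested and were not called at any time, and Nnat, which encodes neuronatin, was not called in either system except at 96 h without 96 h replicate 3 (log2 −0.44, limma adjusted p = 0.0407).

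Of 22 genes that keep or erase imprints, such as the methyltransferases and the ZFP57 partners, 19 and 20 were tested. Limma called 1 of 19 in Pax7 cells and 1, 2 and 4 of 20 at 12, 24 and 96 h, against 36.7%, 6.49%, 13.5% and 33.7% of all genes. In Pax7 cells it was lower (Ehmt2, a histone methyltransferase gene, log2 −0.29), and at 12 h higher (Tet3, which encodes an enzyme that oxidizes methylated cytosine, log2 0.25). At 24 h Tet1 and Tet3 were higher (log2 0.24 and 0.30). At 96 h Setdb1 (log2 0.13) and Tet3 (0.26) were higher and Dnmt3a (−0.11) and Tet2 (−0.17) lower. Dnmt1, the gene for the maintenance methyltransferase, read 4789 ± 215 scaled reads at 0 h and 4912 ± 59.0 at 96 h (n = 3; limma adjusted p = 0.466). Zfp57 itself was low, at 1.29 ± 0.189 and 0.914 ± 0.0784 scaled reads at 0 and 96 h, groups that did not overlap. It averaged 1.48 at 12 h and 0.791 at 24 h. Zfp57 thus passed the filter on low values mainly through the 0 and 12 h libraries, where it is higher, so no test is given for it. The count of 20 tested genes includes it.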

How the data were processed

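The deposited tables were used as the authors left them. The build was mm10 (GRCm38) per the submitters' processing notes, which list TopHat, HOMER and edgeR; their versions are not given in the sources used here. The ER-Pax7 signal values are exon reads per RefSeq gene that the authors scaled to the same total per library, while those of Neo and Pax7 are FPKM over whole gene bodies (with introns) per the file headers, and the values show that they were rescaled to 1 total. The deposited log2 folds and the deposited p-value and FDR columns are the authors' own, per the file headers, and were used only where named. Gene names, positions and lengths come from the deposited tables, promoter windows from RefSeq and exon overlaps from GENCODE. Printed positions and row overlaps are those of the Neo and Pax7 table, and some genes, such as Trappc9 and Meg3, have another span in the ER-Pax7 table.

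Genes with at least 1 scaled read in 3 libraries (15188) or 0.1 FPKM in 2 (13393) were tested with limma 3.58.1 (R 4.3.3, empirical Bayes with trend) on log2 values after TMM factors (edgeR 4.0.16), with a pseudocount of 1 scaled read or 0.1 FPKM and Benjamini-Hochberg adjustment over all genes tested at 0.05. The code was tested on simulated data. Values are given after TMM factors, with SD over libraries. Low ER-Pax7 values are whole multiples of 1 read in 100% of cases within 0.1 reads; the recovered reads were tested with edgeR and DESeq2 1.42.0 as alternatives, beside other scalings, pseudocounts and filters, a replicate block and leaving out each library. Depth errors from reads cover counting only, since reads carry no molecular identifiers.

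The members and lists were chosen with earlier results of these data known. All 43 genes are accounted for; values per library are given for Mest, for genes called with a log2 difference of at least 0.5 in size, and for tested genes of their loci, and the others by range. Genes of the imprint-keeping list, genes under the filter and miRNA genes inside Rtl1 were named after their values were seen. No strand, allele or sequence variant was read.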

Additional observations from a re-analysis of the deposited data

Results flagged for a closer look

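Zrsr1, Slc22a18 and Gnas had differences of opposite sign in the systems, with no overlap between the groups compared in either. Lack of overlap was common: it held for 74% of all genes tested in Pax7 against Neo and for 45.8% at 96 h. The share of all genes with no overlap in both and opposite signs was not computed. Of the 12992 genes tested in both, 2.18% were called in opposite directions, as was 1 of the 24 imprinted genes. The log2 difference of Zrsr1 was 0.30 in Pax7 against Neo cells and −0.13 in ER-Pax7 cells at 96 h against 0 h. For Slc22a18 the values were 0.13 and −0.28, and for Gnas 0.18 and −0.071. By limma both Zrsr1 differences and the 96 h difference of Slc22a18 were called, and the others were not. The difference between the systems was not tested, since the tables were normalized separately and one counts gene bodies and the other exons.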

How the results depend on the processing

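Across the 26 alternatives no direction of a called imprinted gene was reversed. Counts of called imprinted genes stayed within 1.5 times, from 9 to 11 (without 1 library), 12 (replicate block) and 17 (no filter, 4 of them below 0.1 FPKM and at the rounding of the deposited values) in Pax7 against Neo, where the main count was 13. The 4 below 0.1 FPKM include both Snrpn and Snurf, whose rows cover the same bases. Without 1 library the counts of called imprinted genes ranged from 4 to 6 at 12 h, 8 to 12 at 24 h and 13 to 18 at 96 h. They ranged from 9 to 13 for 96 h against 24 h, and from 13 to 17 over the 4 times. In all alternatives 9 of 13, 3 of 6, 8 of 11, 11 of 17 and 8 of 12 calls were kept (Pax7 against Neo, 12, 24 and 96 h, and 96 h against 24 h).

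Over all genes, Pax7 against Neo called 4911, and 2005 to 2918 without any 1 of its 4 libraries, where the lone library left is assumed to vary like those of the other group. For 96 h against 24 h, 1929 were called, and 1268 (without 96 h replicate 2) to 2116 without 1 library. Without TMM factors, 67.7% of the genes called in Pax7 against Neo were higher (2600 higher, 1241 lower), against 50.4% with them (2475 and 2436), and the same 13 imprinted genes were called.

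Whether the replicate numbers pair the libraries is not settled. The correlation of Neo and Pax7 replicate 1 deviations was 0.0375. Of 18 same-numbered ER-Pax7 pairs the values ran from −0.0824 to 0.144, most of them positive. Those of differently numbered pairs ran from −0.128 to 0.0979. Without a replicate block, 4911, 986, 2056, 5124, 1929 and 4603 genes were called, in the order given next. The block thus gave more calls in each ER-Pax7 comparison and fewer in Pax7 against Neo. With the replicate block, 3410, 1271, 2516, 5755, 2506 and 5457 genes were called (Pax7 against Neo, 12, 24, 96 h, 96 h against 24 h, and the 4 times), of them 12, 8, 12, 18, 12 and 19 imprinted genes. With it Airn was not called in Pax7 cells (0.0575), and Igf2r (0.0425) and Nespas (0.0412) at 12 h, Kcnq1ot1 at 24 h (0.0212) and Plagl1 at 96 h (0.0175) were, as limma adjusted p. With 2 libraries a group and low FPKM, small differences in Pax7 cells are the least certain, and genes near 3 reads give no usable difference.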
